A study of Mus musculus with 12 samples.

Results

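The nuclear genes of oxidative phosphorylation were followed through mouse kidney development and through 7 days of kidney and organoid culture. They were taken by gene name as the Nduf, Sdh, Uqcr, Cyc1, Cox4 to Cox8 and Atp5 genes of the array design. The choice gave 86 genes of 34650 genes and unnamed probes: 35 of complex I, 4 of complex II, 9 of complex III, 20 of complex IV and 18 of complex V. Most are subunits, but Atp5c1-ps is a pseudogene, and Atp5s, Atp5sl and Cox7a2l carry subunit-like names without being subunits of the complex they are named for. Ndufa4 and its paralog Ndufa4l2 are counted with complex IV, where the Ndufa4 protein resides, although they are named after complex I. In all, 82 of the 86 genes gave a signal well above background on all 12 arrays. Cox7b2 and Cox8c, both isoforms of the testis, did so on 0 arrays, and Cox6a2 and Cox8b, both isoforms of striated muscle, on 9 arrays each.

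Complexes I and II pass electrons from NADH and succinate to coenzyme Q, complex III passes them on to cytochrome c, and complex IV (cytochrome c oxidase) hands them to oxygen. Complexes I, III and IV pump protons as they do so, and complex V (ATP synthase) uses the returning protons to make ATP. Several nuclear subunits of complex IV exist as a widely expressed isoform and a second one of heart and skeletal muscle, of vessels and lung, or of testis. The proximal tubule of the mature kidney is rich in mitochondria and relies on oxidative phosphorylation for solute transport.

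RNA was measured on 12 one-colour Agilent arrays. Day 7 organoids (n = 3) and day 0 organoids (n = 3, taken right after reconstruction) joined wild type ICR cells, stromal progenitors of E11.5 kidney, with nephron progenitors and ureteric bud derived from mouse embryonic stem cells of B6 and 129SV background. The kidneys were wild type ICR, with 1 array each for E11.5 kidney cultured for 7 days, for uncultured E11.5 kidney (taken without ureter), for 3 later embryonic stages (E13.5, then E15.5, then E17.5), and for P0, the day of birth. Both cultures used transwells with 50% Matrigel and 10% FBS. Kidney and organoid therefore differ in strain as well as in origin, and these cannot be told apart.

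Each value is the log2 of the background-corrected signal minus the 75th percentile of its array, so 0 marks a signal equal to that percentile, and values of different probes are not compared with each other. Signal at that percentile lay between 201 and 287 units on all arrays but those of day 0, where it lay between 126 and 138. Differences are given ± SE, and a gene is said to have risen or fallen where limma gave a two-sided adjusted p under 0.05 over all features tested. Nothing in the labels tells whether each organoid replicate was its own culture, and p-values therefore measure the spread between these arrays, which may be technical. Precision is limited by the number of arrays. In comparisons with kidney, the lone kidney arrays are assumed to vary like the organoid replicates. All kidney arrays and day 0 replicates 1 and 2 lay on slide 1, whereas day 0 replicate 3 and all day 7 arrays lay on slide 2.

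In the kidney, most subunit genes were lowest at E11.5 or highest at birth. Of the 82 genes measured on every array, 72 had their lowest stage at E11.5, and 69 had their highest at P0, 11 at E13.5 and 2 at E17.5. P0 exceeded E11.5 for 81 of the 82 genes, against 33.9% of all 21105 features well above background at every kidney stage. The median difference was 0.59 for these genes and -0.29 over those features. The gain came at every step but that from E13.5 to E15.5, and was largest at the first and the last. E13.5 exceeded E11.5 for 81 genes, against 56.3% of all features (median 0.35, all features 0.06). P0 exceeded E17.5 for 79 genes, against 40.9% of all features (median 0.28, all features -0.07). Between these steps, E15.5 exceeded E13.5 for only 10 genes, against 35.7% of all features (median -0.13, all features -0.14). E17.5 exceeded E15.5 for 64, against 39.7% of all features (median 0.12, all features -0.08). Each gene centred on its own mean over the 12 arrays, complex III had the widest climb, with a median of -0.17 at E11.5, 0.36 at E17.5 and 0.64 at P0. Complex V had the narrowest, at -0.13 at E11.5 and 0.37 at P0. P0 was also the highest of all 12 arrays for 57 of the 82 genes, and a day 0 organoid array was the highest for 21. For these counts of highest and lowest stages or arrays, no share over all features was counted.

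**Figure D1:**
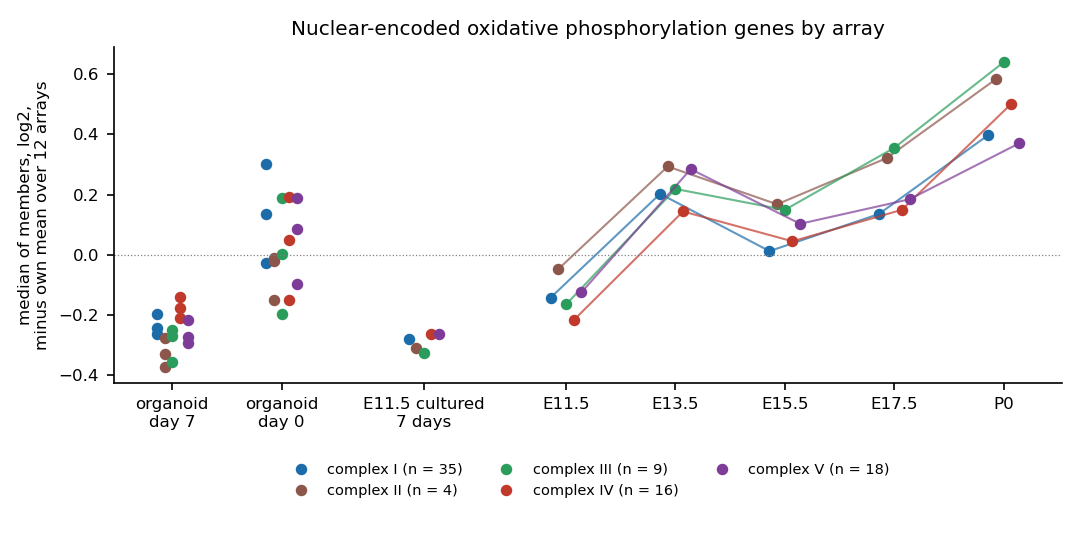
Median over the genes of each complex measured on every array (82 in all), log2, each gene minus its own mean over the 12 arrays (y axis), for every array (x axis); 1 point per array and complex, with lines joining the 5 kidney stages. All complexes are highest at P0, where complex III reaches 0.64, while the 3 day 7 organoid arrays and the cultured E11.5 kidney lie below 0 for every complex.

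Fitted as a slope per stage over the 5 kidney arrays, 82 of 84 genes tested had a positive slope, with a median of 0.12 against -0.06 over 25980 features. With 1 array per stage, 5 genes passed the threshold upwards (5.95%, against 8.74% of all features) and 0 downwards (against 9.57%), and at an unadjusted p under 0.05 limma counted 25 upwards and 0 downwards. The number that passed depends on the scaling: it was 52 with quantile normalization, 29 with normexp background correction and 2 with scaling to the median.

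Cox7a1, the heart and skeletal muscle isoform of a small complex IV subunit, had the steepest slope (1.05 ± 0.12 per stage, adjusted p = 0.0141, limma). Its values were -0.74 at E11.5, -0.74 at E13.5, 0.65 at E15.5, 1.99 at E17.5 and 3.14 at P0. The rise began after E13.5 and was still under way at birth. Ndufa4l2 had values of -2.00, 0.28, 1.36, 2.26 and 1.97 at the same stages, so its gain was complete by E17.5 (slope 0.99 ± 0.21, adjusted p = 0.0406, limma). The other genes that rose were Cyc1, the heme-bearing cytochrome c1 of complex III, and Ndufv3 and Ndufb10, accessory subunits of complex I. Cyc1 had values of 4.59, 5.13, 5.03, 5.31 and 5.81 from E11.5 to P0, a slope of 0.26 ± 0.06 (adjusted p = 0.0492, limma). Ndufb10 stepped up at every stage, with values of 5.28, 5.62, 5.76, 6.01 and 6.30 (0.24 ± 0.04, adjusted p = 0.0298, limma). Ndufv3 had values of 4.75, 5.40, 5.31, 5.93 and 6.23 on the probe kept (0.35 ± 0.06, adjusted p = 0.0292, limma). The probes of Ndufv3 differed: P0 minus E11.5 was 1.48 on the probe kept, 0.96 on another and -0.16 on the third. All 5 lost the threshold when P0 or E17.5 was left out, and Cyc1 and Ndufa4l2 lost it on leaving out any 1 stage (lowest adjusted p = 0.0516 for Cyc1 and 0.0666 for Ndufa4l2, limma). Without E11.5 or without E15.5, Cox7a1 alone of the 5 passed.

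The start regions of a ubiquitous isoform, a complex V gene and a muscle isoform are shown because these genes follow different courses below. RefSeq promoters of build GRCm38.p6, from 250 bases before to 50 after the gene start, were at hand for 69 of the 86 genes. The palindromic binding motif of NRF1, a transcription factor of mitochondrial genes, was found on either strand in 17 of the 69 (24.6%) and in 5.19% of 27025 genes. The motif AAGATGGCG of YY1 was found in 8 (11.6%, against 1.64% of genes), the motif TCAAGGTCA of estrogen-related receptors in 2 (2.90%, against 0.466%) and the letters CAGCTG of a myogenic E-box in 6 (8.70%, against 18.3%). These are matches of letters and not binding sites, and none of these motifs overlaps another in the regions shown. Cox6a1 (chr5:115348909-115349208, minus strand) has 2 NRF1 matches, in capitals. Atp5g3, a c-ring subunit gene of complex V (chr2:73911277-73911576, minus strand), has in capitals an estrogen-related receptor match read on the other strand and then an NRF1 match. Cox8b (chr7:140900397-140900696, minus strand) has 2 CAGCTG matches in capitals.
Cox6a1: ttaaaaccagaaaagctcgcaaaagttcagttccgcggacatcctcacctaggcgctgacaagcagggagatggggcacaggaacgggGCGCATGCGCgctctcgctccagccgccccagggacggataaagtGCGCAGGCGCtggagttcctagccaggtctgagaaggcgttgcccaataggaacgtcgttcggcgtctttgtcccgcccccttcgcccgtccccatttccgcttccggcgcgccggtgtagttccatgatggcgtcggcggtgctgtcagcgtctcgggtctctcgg
Atp5g3: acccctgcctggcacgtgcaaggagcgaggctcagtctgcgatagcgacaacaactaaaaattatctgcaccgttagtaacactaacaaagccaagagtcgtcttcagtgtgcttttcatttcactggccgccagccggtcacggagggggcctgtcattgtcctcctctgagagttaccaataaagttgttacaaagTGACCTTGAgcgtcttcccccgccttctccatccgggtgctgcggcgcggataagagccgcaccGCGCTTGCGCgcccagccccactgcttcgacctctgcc
Cox8b: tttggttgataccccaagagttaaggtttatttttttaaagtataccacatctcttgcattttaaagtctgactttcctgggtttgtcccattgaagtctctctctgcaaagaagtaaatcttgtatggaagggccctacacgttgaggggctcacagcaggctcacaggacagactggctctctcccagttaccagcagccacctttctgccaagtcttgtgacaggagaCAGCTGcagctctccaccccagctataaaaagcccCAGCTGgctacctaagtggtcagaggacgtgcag

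Over 7 days of organoid culture, the subunit genes that fell were mostly of complexes I and V, and 3 complex IV isoforms rose. Of 84 genes tested, 43 fell (51.2%, against 42.0% of all features) and 3 rose (3.57%, against 24.6%). For 59 of the 84 genes, the day 7 values lay all above or all below every day 0 value, against 73.2% of all features. The median difference was -0.33 over these genes and -0.20 over 21962 features. With normexp the order turned, with -0.17 for these genes and -0.22 for all features. Without the background filter the values were -0.34 and -0.39. Within slide 2 alone, where day 7 replicates 1 to 3 meet day 0 replicate 3, 55 genes fell and the median was -0.46. In whole tissue, fewer cells of a type and less RNA per cell cannot be told apart.

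By complex, 22 of 35 genes of complex I fell (median -0.37), 2 of 4 of complex II (-0.27), 3 of 9 of complex III (-0.25), 5 of 18 of complex IV (-0.19) and 11 of 18 of complex V (-0.36). These are 62.9% of complex I and 61.1% of complex V, above the 42.0% of all features that fell, but 33.3% of complex III and 27.8% of complex IV, below it. The median of complex IV also lay above that of all features. Atp5k, the e subunit of the membrane part of ATP synthase, was at 5.45, 5.36 and 5.49 on the day 7 arrays and at 6.25, 6.07 and 6.37 on the day 0 arrays. The groups lay clearly apart, a fall of 0.80 on the log2 scale (-0.80 ± 0.10, adjusted p = 0.000647, limma). Atp5j2, the f subunit, fell by 0.55 and Atp5f1, the b subunit of the stalk, fell by 0.51. In complex I, Ndufc1, a small membrane-arm subunit, was at 5.57, 5.67 and 5.57 at day 7 and at 6.34, 6.20 and 6.44 at day 0 (-0.73 ± 0.09, adjusted p = 0.000683, limma). Each day 7 value was below each day 0 value. Ndufa3 fell by 0.68 on the probe kept, while its other probe gave -0.13, and Ndufb8 fell by 0.68.

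In complex II, Sdhc, a membrane anchor, fell by 0.46 and Sdhb, the iron-sulfur subunit, fell by 0.38. The other 2 genes of complex II did not pass. The flavoprotein Sdha differed by -0.10 (adjusted p = 0.267, limma). Sdhd, also a membrane anchor, was at 4.95, 4.85 and 4.95 at day 7 and at 5.04, 5.06 and 5.16 at day 0. In complex III, Uqcr11 fell by 0.47, Uqcrb by 0.41 and Uqcr10 by 0.39, all 3 small accessory subunits. The other 6 genes of complex III did not pass. Among them, Uqcrh differed by -0.25, Uqcrq by -0.23 and the core protein gene Uqcrc2 by -0.09 (adjusted p = 0.433, limma). Cyc1 was at 4.39, 4.74 and 4.66 at day 7 and at 5.06, 4.69 and 5.26 at day 0. In complex IV, Ndufa4 was at 4.57, 4.72 and 4.65 at day 7 and at 5.34, 5.25 and 5.54 at day 0. The groups did not overlap (-0.73 ± 0.10, adjusted p = 0.000988, limma). Cox7c was at 4.95 to 5.06 at day 7 and at 5.54 to 5.69 at day 0 (-0.62 ± 0.08, adjusted p = 0.000789, limma). Cox5b, the zinc-binding subunit, fell by 0.40.

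The 3 genes that rose are all alternative isoforms. Ndufa4l2, a hypoxia-inducible paralog of Ndufa4, was at 3.85, 4.22 and 3.81 at day 7 and at -1.36, -1.79 and -1.21 at day 0. It was well above background on all 6 arrays and rose 42.8-fold (5.42 ± 0.18, adjusted p = 4.89e-06, limma), or 21.2-fold with normexp. Cox6a2, the striated muscle isoform of subunit VIa, was at -1.38, -1.39 and -1.75 at day 7 and at -4.57, -4.54 and -4.19 at day 0, where 1 of the 3 arrays gave a signal well above background. It rose by 2.92 ± 0.15 (adjusted p = 1.7e-05, limma), but the size depends on the background correction, and normexp, which adds an offset to every signal, gave 0.52 (adjusted p = 0.000236, limma). Cox4i2, the lung and vascular isoform of subunit IV, was at 0.80, 1.10 and 0.74 at day 7 and at -0.26, -0.31 and -0.49 at day 0 (1.23 ± 0.12, adjusted p = 0.00023, limma). Within slide 2 the changes were 5.18 for Ndufa4l2, 2.68 for Cox6a2 and 1.37 for Cox4i2.

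Markers of other cells changed in the same comparison. Of 9 smooth muscle and pericyte markers, 8 rose in culture, and their summed signal relative to the 75th percentile was 482 to 592 at day 7 and 35.3 to 45.9 at day 0. All 15 hypoxia and glycolysis genes rose, with sums of 1707 to 1986 at day 7 and 419 to 521 at day 0. Of 10 striated muscle markers tested, 1 rose and 5 fell, with sums of 11.4 to 15.2 at day 7 and 15.9 to 18.5 at day 0. Ckm and Ttn, the markers of this list left untested, were not well above background on any array. All 8 proximal tubule markers tested rose, with sums of 29.3 to 41.9 at day 7 and 1.69 to 4.02 at day 0, and 4 of 5 loop of Henle and distal tubule markers rose and 1 fell. All 6 neuron markers tested fell, with sums of 3.33 to 4.52 at day 7 and 22.0 to 24.8 at day 0. All 6 erythroid markers tested fell too, with sums of 0.166 to 0.299 at day 7 and 16.9 to 54.5 at day 0. The part of these cells and of hypoxia in the isoforms that rose and in the 43 genes that fell was not tested.

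Day 7 organoids lay below newborn kidney for most subunit genes, and so did E11.5 kidney with and without culture. Of 84 genes, 59 were lower (70.2%, against 15.6% of all features) and 4 were higher (4.76%, against 21.0%). The median difference was -0.65, where the median of 23871 features was 0.06. With each of the 82 genes measured on every array centred on its own mean, day 7 medians were -0.27, -0.21 and -0.25. On that scale cultured E11.5 kidney was at -0.28, uncultured E11.5 kidney at -0.14 and P0 kidney at 0.45. Under the alternatives run, 41 to 73 genes were lower and the median stayed between -0.93 and -0.61. No slide holds both groups. With slide as a block, which links them through the day 0 arrays, 53 genes were lower and the median was -0.88. By complex, all 4 complex II genes, 8 of 9 of complex III, 23 of 35 of complex I, 14 of 18 of complex V and 10 of 18 of complex IV were lower. The medians were -0.95 for complex II, -0.99 for III, -0.62 for I, -0.63 for V and -0.64 for IV.

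Sdhd, a membrane anchor of complex II, was at 4.95, 4.85 and 4.95 in day 7 organoids and at 5.97 in P0 kidney (-1.05 ± 0.11, adjusted p = 0.00143, limma). Sdhb was lower by 1.01 (-1.01 ± 0.15) and Sdhc by 0.90 (-0.90 ± 0.11). Cyc1 was at 4.39, 4.74 and 4.66 at day 7 and at 5.81 in P0 kidney (-1.21 ± 0.25, adjusted p = 0.0128, limma). Uqcr10 (-1.13 ± 0.15) and Uqcrfs1, the Rieske iron-sulfur protein (-1.03 ± 0.12), were lower as well. All 3 day 7 values were below P0 for each of these genes.

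In complex I, Ndufb8 was at 5.79, 5.79 and 5.73 in day 7 organoids and at 7.08 in P0 kidney (-1.31 ± 0.21, adjusted p = 0.00538, limma). Ndufs1, the largest iron-sulfur subunit of the electron-accepting arm, differed by -1.08 ± 0.13 and Ndufa8 by -1.05 ± 0.16. In complex V, Atp5g1, another c-ring gene, was at 6.24, 6.24 and 6.25 at day 7 and at 7.56 in P0 kidney (-1.32 ± 0.17, adjusted p = 0.00241, limma). Its other probe gave a difference of -0.41, and for P0 minus E11.5 the probe kept gave 1.13 and the other -0.24. Atp5k (-0.98 ± 0.15) and Atp5o, the oligomycin-sensitivity subunit (-0.97 ± 0.17), were lower too.

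**Figure D2:**
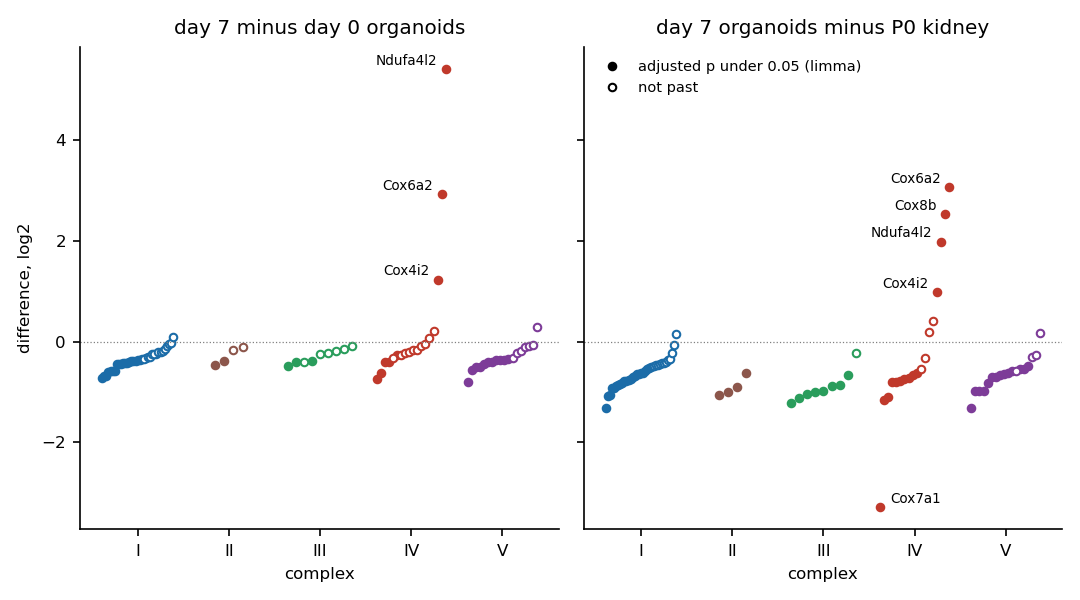
Difference in log2 (y axis) of each of 84 genes, sorted within its complex (x axis), for day 7 minus day 0 organoids (left) and day 7 organoids minus P0 kidney (right); filled points passed an adjusted p of 0.05 and open points did not. Most points lie below 0 on both sides, and the points far above it are the complex IV isoforms Ndufa4l2, Cox6a2, Cox4i2 and, on the right, Cox8b.

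Nephron maturity markers were lower in the same comparison. All 9 proximal tubule markers were lower in day 7 organoids than in P0 kidney (median -4.38), with summed signals of 29.3 to 41.9 at day 7 and 534 at P0. Along the kidney stages 8 of these 9 rose, with sums of 1.80 at E11.5, 14.4 at E13.5, 105 at E15.5 and 268 at E17.5. In organoid culture the proximal tubule markers rose, where 43 subunit genes fell (51.2%, against 42.0% of all features). All 8 markers tested were also higher in cultured than in uncultured E11.5 kidney, with sums of 25.6 and 1.80. There the median was -0.12 both for the subunit genes and over all features. The part of the tubule cells in the subunit values was not tested.

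Within the isoform pairs of complex IV, the difference from P0 kidney varied in size or in direction. Cox7a1 had the largest deficit of all, at -0.10, -0.15 and -0.19 in day 7 organoids against 3.14 in P0 kidney, which is 9.75-fold lower (-3.29 ± 0.16, adjusted p = 0.000111, limma). Its day 7 values lay between those of E13.5 and E15.5 kidney, and culture changed it by 0.20 ± 0.11 (adjusted p = 0.139, limma). Its liver-type partner Cox7a2 was at 5.22, 5.34 and 5.33 at day 7 and at 6.08 at P0 (-0.79 ± 0.14, adjusted p = 0.00858, limma). Both were lower in the organoids, the muscle isoform by far the more.

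Cox6a2 and Cox6a1 went opposite ways. Cox6a2 was at -1.38, -1.39 and -1.75 in day 7 organoids and at -4.58 in P0 kidney (3.07 ± 0.22, adjusted p = 0.000353, limma), or 1.28 with normexp, and no uncultured kidney array exceeded -3.93. Cox6a1, the ubiquitous form, was at 7.99, 7.95 and 7.94 at day 7 and at 8.71 at P0 (-0.75 ± 0.14, adjusted p = 0.0101, limma), and its culture change of -0.26 ± 0.10 did not pass (adjusted p = 0.0523, limma). Cox4i2 was at 0.80, 1.10 and 0.74 at day 7 and at -0.11 at P0 (0.99 ± 0.18, adjusted p = 0.00858, limma). Cox4i1, its ubiquitous partner, was at 6.85, 6.95 and 6.84 at day 7, at 6.76, 6.56 and 7.09 at day 0 and at 7.19 at P0. These values overlap between the organoid groups, and neither the culture change (0.08 ± 0.14, adjusted p = 0.649, limma) nor the difference from P0 (-0.31 ± 0.21, adjusted p = 0.281, limma) passed.

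Ndufa4l2 and Ndufa4 also went opposite ways. Ndufa4l2 was higher in day 7 organoids than in P0 kidney (1.99 ± 0.27, adjusted p = 0.003, limma), whereas Ndufa4 was lower (-1.16 ± 0.15, adjusted p = 0.00247, limma). Among the kidney stages Ndufa4 was lowest at E11.5 (5.23) and highest at P0 (5.81). Cox8b, the muscle isoform of subunit VIII, was at -2.27, -1.69 and -2.60 in day 7 organoids and at -4.73 in P0 kidney (2.54 ± 0.33, adjusted p = 0.00286, limma), or 0.98 with normexp. Cox8a was at 7.40, 7.58 and 7.35 at day 7 and at 7.99 at P0, and the difference did not pass (-0.54 ± 0.19, adjusted p = 0.0698, limma). Against P0, 4 of 9 striated muscle markers tested and 6 of 9 smooth muscle and pericyte markers were higher in day 7 organoids, and 1 smooth muscle and pericyte marker was lower.

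Of the remaining pairs, Cox6b1 was lower than at P0 (-0.80 ± 0.20, adjusted p = 0.0252, limma), while the testis isoform Cox6b2, readily measured here, differed by 0.20 ± 0.25 (adjusted p = 0.571, limma). Cox7a2l, which joins complexes III and IV into supercomplexes, differed by 0.42 ± 0.23 (adjusted p = 0.202, limma), and Cox7b by -0.73 ± 0.18 (adjusted p = 0.0246, limma). The 3 c-ring genes of complex V encode the same mature protein. Atp5g1 and Atp5g3 were lower in day 7 organoids than at P0, Atp5g3 by -0.97 ± 0.16 (adjusted p = 0.00631, limma). Atp5g2 was at 7.65, 7.75 and 7.71 at day 7 and at 7.53 at P0 (0.17 ± 0.17, adjusted p = 0.479, limma), but it was lower with quantile normalization (-0.37, adjusted p = 0.0347, limma). In culture Atp5g3 fell by 0.50 (-0.50 ± 0.11, adjusted p = 0.00715, limma), and the changes of Atp5g1 (-0.22 ± 0.12) and Atp5g2 (-0.10 ± 0.12) did not pass. In the kidney Atp5g1 had values of 6.43 at E11.5 and 7.56 at P0, whereas Atp5g2 peaked at E13.5 (7.92) and was at 7.53 at P0.

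**Figure D3:**
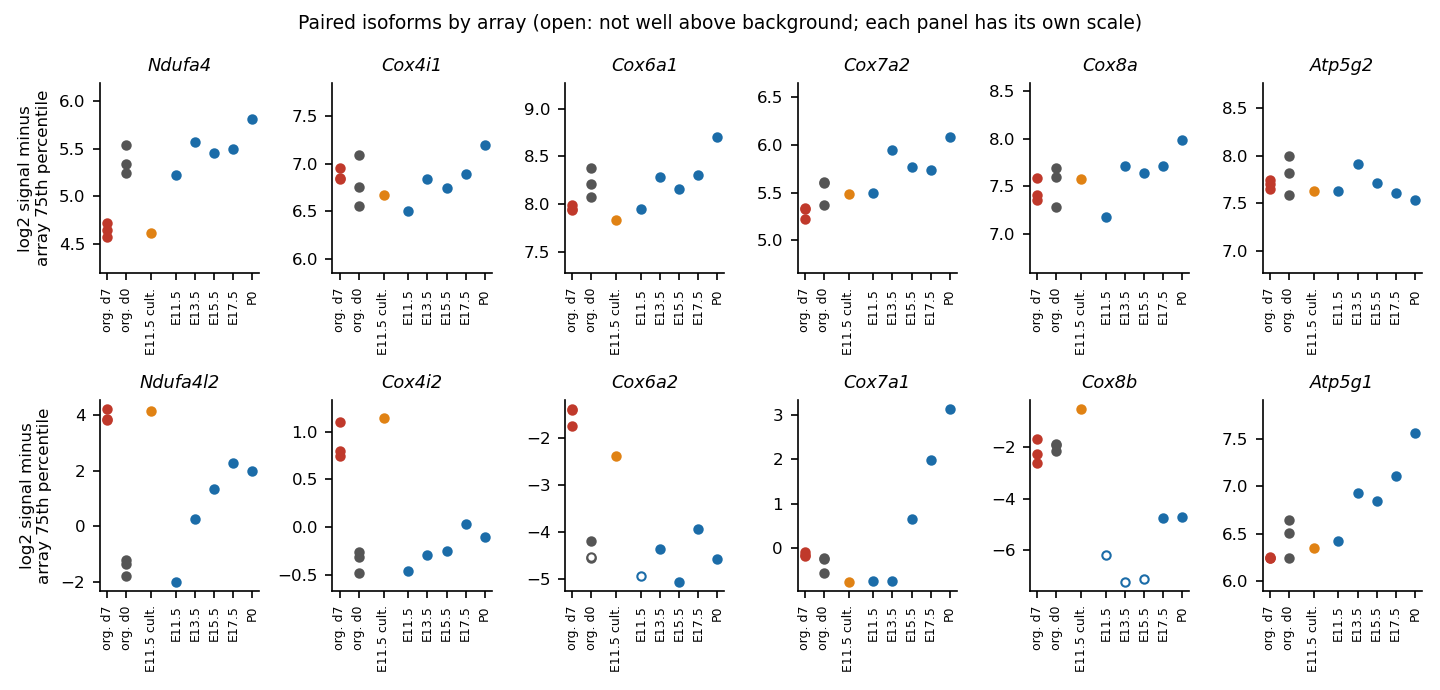
Values per array (y axis, log2 signal minus the array's 75th percentile, own scale in each panel) of 12 isoform genes, for day 7 and day 0 organoids, cultured E11.5 kidney and the kidney stages (x axis); open points were not well above background. Ndufa4l2, Cox4i2 and Cox6a2 are high in both cultured tissues, Cox7a1 is highest in the late kidney stages, and each gene of the upper row spans a narrower range than the gene below it.

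Before culture, a few subunit genes were higher in organoids than in E11.5 kidney. Of 83 genes tested, 8 were higher (9.64%, against 13.6% of all features) and 0 lower (against 12.8%), while an unadjusted p under 0.05 in limma gave 21 higher and 0 lower. The median difference was 0.20, and 0.03 over 23322 features. With normexp 12 were higher and 4 lower, and the median of these genes was 0.06 where that of all features was 0.19. Within slide 1, 2 genes were higher. Ndufv3 was at 6.07, 5.89 and 6.21 in day 0 organoids and at 4.75 in E11.5 kidney (1.30 ± 0.17, adjusted p = 0.00457, limma), and its other probes gave 0.86 and 0.28. Ndufa3 (0.66 ± 0.17), Ndufa7 (0.65 ± 0.18), Ndufc1 (0.54 ± 0.13) and the complex III hinge protein gene Uqcrh (0.65 ± 0.17) were higher as well. Leaving out day 0 replicate 2 gave 20 higher genes, and leaving out day 0 replicate 1 gave 2.

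In complex IV, Cox6b2 was at 1.93, 1.55 and 2.14 in day 0 organoids and at 0.87 in E11.5 kidney, with a mean of 1.87 at day 0 (adjusted p = 0.0317, limma). Cox7a2l was at 7.19, 7.06 and 7.60 at day 0 and at 6.47 in E11.5 kidney (0.81 ± 0.23, adjusted p = 0.0468, limma). Cox8b was at -1.92, -2.14 and -1.87 at day 0 and not well above background in E11.5 kidney (measured at -6.20). The test that Cox8b passed took this E11.5 value as measured, with a fitted difference of 4.23. As a limit, which was not itself tested, Cox8b was at least 10.1-fold higher in day 0 organoids. This limit holds for the scale used here, and with normexp the fitted difference was 1.22, or 2.32-fold. Of 10 striated muscle markers tested, 6 were higher in day 0 organoids than in E11.5 kidney and 0 lower, with sums of 15.9 to 18.5 at day 0 and 8.88 in E11.5 kidney. Their part in the Cox8b value was not tested.

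E11.5 kidney cultured for 7 days had more RNA of Ndufa4l2, Cox4i2 and Cox6a2 than uncultured E11.5 kidney. With 1 array each there is no test, and genes are named at a difference of at least 1.5-fold. Of 84 genes, 8 were higher (9.52%, against 18.1% of all features) and 5 lower (5.95%, against 21.1%). The counts were 7 and 2 with quantile normalization, 7 and 3 with normexp and 6 and 8 with scaling to the median. The median was -0.12 both for these genes and over 24148 features. Ndufa4l2 was at 4.15 in cultured kidney and at -2.00 in E11.5 kidney, a difference of 6.14, or 5.09 with normexp. Cox4i2 was at 1.15 in cultured and -0.46 in uncultured kidney (1.61). Cox6a2 was at -2.38 in cultured kidney and not well above background without culture, at least 5.92-fold higher against its own E11.5 signal, or 1.54-fold with normexp. These are the isoforms that rose in cultured organoids.

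Cox8b was at -0.50 in cultured kidney, its highest value on any array, and at least 28.1-fold higher than in E11.5 kidney, or 3.97-fold with normexp. Ndufa6, Ndufv3, Cox6b2 and Cox7a2l were higher in cultured kidney by 0.63 to 0.85, although the probes of Ndufv3 differed, with 0.68 on the probe kept, 0.78 on another and -0.24 on the third. Cox7b was at 5.13 in cultured and 5.91 in uncultured kidney (-0.78), and Atp5j2 (-0.64), Cyc1 (-0.62), Ndufa4 (-0.62) and Ndufb7 (-0.59) were lower too. The hypoxia and glycolysis genes summed to 1650 in cultured and 820 in uncultured E11.5 kidney, and the smooth muscle and pericyte markers to 178 and 14.6. By the fold used above for single arrays, 3 of 8 striated muscle markers were higher in cultured kidney and 4 lower. Striated muscle sums were 9.67 in cultured and 8.88 in uncultured kidney. The 2 brown fat markers compared were higher, and all 8 erythroid markers were lower, with erythroid sums of 2.07 in cultured and 772 in uncultured kidney. The part of these genes and markers in the isoform values was not tested.

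Day 7 organoids and cultured E11.5 kidney differed in 1 of 84 genes (1.19%, against 3.10% lower over all features), and 0 were higher (against 3.25%). At an unadjusted p under 0.05 limma gave 5 higher and 2 lower. Counts of higher and lower genes were 5 and 2 with normexp, 1 and 1 with quantile normalization and 2 and 1 with scaling to the median. The gene was Cox8b, at -2.27, -1.69 and -2.60 in day 7 organoids and -0.50 in cultured kidney (-1.69 ± 0.33, adjusted p = 0.0406, limma), or -1.07 with normexp. It lost the threshold in 7 of 14 alternatives, among them slide as a block (adjusted p = 0.226). For the other isoforms the differences were -0.18 ± 0.26 for Ndufa4l2, -0.27 ± 0.18 for Cox4i2 and 0.87 ± 0.22 for Cox6a2 (adjusted p = 0.0721, limma).

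The change over 7 days in organoids was then set against that in E11.5 kidney, with the difference of both changes as the test. It passed for Cox8b alone of 84 genes (1.19% lower, against 5.93% of all features) and was positive and past the threshold for 0 (against 6.38%), with 1 and 11 at an unadjusted p under 0.05 (limma). Quantile normalization gave 1 with a larger and 4 with a smaller change, and normexp 2 and 8. Cox8b changed by -0.21 ± 0.23 in organoids and by at least 28.1-fold upwards in kidney (difference -5.92 ± 0.48, adjusted p = 0.00332, limma), or -2.29 with normexp. With the E11.5 array at its lower limit of measurement the difference was -5.03.

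The 13 subunits encoded by mitochondrial DNA, which build the cores of complexes I, III, IV and V together with the nuclear subunits, changed more in organoid culture than the nuclear genes did. In day 7 organoids 12 fell (92.3%, against 42.0% of all features) and 1 rose (7.69%, against 24.6%), with a median of -1.33. These counts were the same under all alternatives run, also within slide 2. ND5 was at 4.17, 4.11 and 4.35 at day 7 and at 5.69, 5.92 and 5.81 at day 0 (-1.59 ± 0.10, adjusted p = 4.01e-05, limma). ATP8 (-1.78 ± 0.16), ND4L (-1.77 ± 0.13) and ATP6 (-1.67 ± 0.12) fell the most, and COX2 the least (-0.64 ± 0.09). ND6, the subunit gene on the opposite strand of mitochondrial DNA to the other 12, was at 1.84, 1.84 and 1.46 at day 7 and at 0.19, 0.28 and -0.03 at day 0 (1.57 ± 0.14, adjusted p = 0.000151, limma).

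ND6 was also higher in cultured than in uncultured E11.5 kidney, at 1.61 against -0.41. There ATP6 was lower by 0.74, and the other 11 were within 1.5-fold. Against P0 kidney, day 7 organoids had 7 of the 13 lower (53.8%, against 15.6% of all features), but only 2 with slide as a block. ND6 alone was higher (2.27 ± 0.21, adjusted p = 0.000743, limma), which is 7.69% of the 13, against 21.0% of all features. Day 0 organoids had 6 of the 13 higher than E11.5 kidney (46.2%, against 13.6% of all features) and 0 lower (against 12.8%). Among the 6 was ATP8 (0.90 ± 0.23, adjusted p = 0.033, limma). Along the kidney stages none of the 13 passed upwards or downwards (against 8.74% and 9.57% of all features), with a median slope of -0.01.

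**Figure D4:**
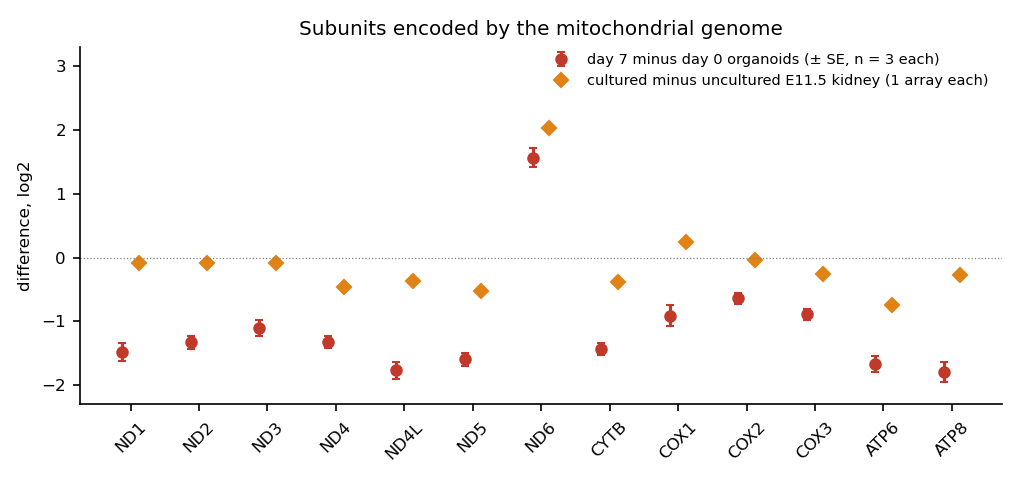
Difference in log2 (y axis) of the 13 subunits encoded by mitochondrial DNA (x axis), for day 7 minus day 0 organoids (circles, ± SE, n = 3 each) and for cultured minus uncultured E11.5 kidney (diamonds, 1 array each). ND6 is above 0 in both tissues, and the other 12 lie below 0 in organoids, from -1.78 for ATP8 to -0.64 for COX2.

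Other genes of the pathway followed by list. Of 41 assembly factors of the complexes, 30 fell (73.2%) and 1 rose in organoid culture (median -0.48), where 42.0% of all features fell and 24.6% rose. Against P0, 15 of 42 were lower (35.7%), where 15.6% of all features were. Of 7 complex genes that the name pattern misses, such as cytochrome c and the carrier protein subunit Ndufab1, 5 fell in culture (71.4%). Against P0, 5 of the 7 were lower (71.4%). Of 10 genes of coenzyme Q synthesis, 6 fell (60%) and 0 rose in culture. Of these 10, 4 were lower (40%) and 1 higher (10%, against 21.0% of all features) than at P0. Of 13 citric acid cycle genes, 5 fell (38.5%, near the share of all features) and 2 rose in culture, and 10 were lower than at P0 (76.9%), among them Ogdh (-1.55 ± 0.12) and Idh3a (-1.06 ± 0.13). Of 6 genes of phosphate and ADP/ATP carriers and outer membrane channels, 1 rose (16.7%) and 2 fell (33.3%) in culture, below the shares of all features. In this list 2 were lower than at P0 (33.3%, median -0.38). Slc25a5, an ADP/ATP carrier, was lower than at P0 (-1.72 ± 0.12, adjusted p = 0.000318, limma).

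Among 14 regulators of mitochondrial biogenesis, 8 were lower in day 7 organoids than at P0 (57.1%, against 15.6% of all features). Another 1 was higher (7.14%, against 21.0%). Of 13 tested in culture, 6 fell (46.2%) and 4 rose (30.8%), near the 42.0% and 24.6% of all features. Ppargc1a, a coactivator that drives biogenesis, was at 0.03, -0.24 and -0.19 in day 7 organoids, at -1.04, -0.70 and -1.26 in day 0 organoids and at 1.94 in P0 kidney. It rose in culture (0.87 ± 0.16, adjusted p = 0.00326, limma) and was lower than at P0 (-2.08 ± 0.23, adjusted p = 0.00159, limma). The nuclear receptors Esrrg (2.51 ± 0.11) and Esrrb (1.51 ± 0.21) rose in culture as well, and both were lower than at P0 (-1.52 ± 0.16 for Esrrg and -3.58 ± 0.31 for Esrrb). Tfb1m, a methyltransferase of mitochondrial ribosomal RNA, fell in culture (-1.12 ± 0.11, adjusted p = 0.000184, limma). Along the kidney stages 5 of the 14 rose (35.7%, against 8.74% of all features) and 1 fell (7.14%, against 9.57%). Slopes were 1.43 ± 0.13 for Esrrb, 1.13 ± 0.20 for Esrrg and 0.77 ± 0.09 for Ppargc1a.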

How the data were processed

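Per the file headers, Agilent Feature Extraction 11.5.1.1 made each deposited intensity, a background-subtracted processed signal in 1 colour; the submitters' processing notes name version 10.7.3.1. The authors also deposited a table of log2 values, which differs from the log2 of that intensity by a constant close to the 75th percentile per array, with no centring by gene. Here outlier spots were left out, and processed signals were put on a log2 scale, less the 75th percentile of their array. The probe with the highest mean over 12 arrays stood for a gene (28 of the 86 genes had several). A feature entered a test if all arrays of 1 or more groups compared (1 array for the slope) had it well above background.

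Comparisons used limma 3.58.1 in R 4.3.3 with Benjamini-Hochberg adjustment over all features tested, called at 0.05, with Python 3.11.15. The organoid groups were fitted alone (6 arrays), the slope on the 5 kidney stages, and comparisons of organoids with kidney on all 12 arrays as 8 groups. Where a group was below background, a fold is a lower limit, the bright mean against the array's dimmest signal well above background, or against the gene's own dim signal where that is higher. The members, lists and tests were chosen with earlier results of these data known. Named are isoform genes and, per complex and comparison, up to 3 genes each way past the threshold. The organoid culture values of Sdha, Sdhd, Cyc1, Uqcrh, Uqcrq and Uqcrc2 lie outside this rule and were added after they were seen. Same-numbered organoid arrays did not deviate together (correlations of -0.03, -0.16 and -0.03), so samples were not paired. Alternatives were the mean of a gene's probes, the authors' table, median scaling, normexp (offset 50), quantile normalization, trend and robust moderation, no background filter, slide and replicate blocks, single slides and leaving out each array. Code was tested on simulated data. RefSeq promoters and names were used, and all 86 genes matched, 3 under a newer symbol.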

Additional observations from a re-analysis of the deposited data

Results flagged for a closer look

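The change over 7 days differed between organoids and E11.5 kidney, by a test of the difference itself in limma, for Cox8b and 7 subunits of the mitochondrial genome. The 7 are 53.8% of the 13 subunits, against 5.93% of all features. Cox8b had a difference of -5.92 ± 0.48, resting on a rise in the kidney alone. In uncultured E11.5 kidney it was not well above background (measured at -6.20), and the fit took that value as measured. With that array at its lower limit of measurement the difference was -5.03. Cox8b was higher in the 1 cultured kidney array and at overlapping levels in the 3 day 7 and 3 day 0 organoid arrays. The fitted difference passed under every alternative run and was -2.29 with normexp, the smallest. For the mitochondrial genome, the organoid change was the more negative for ATP8 (-1.52 ± 0.32), ND4L (-1.41 ± 0.27), ND1 (-1.40 ± 0.29), ND2 (-1.25 ± 0.20), ND5 (-1.08 ± 0.21), CYTB (-1.05 ± 0.20) and ND4 (-0.86 ± 0.19), with adjusted p-values from 0.018 to 0.0399 in limma. Each of these 7 was lower in all 3 day 7 arrays than in all 3 day 0 arrays, and within 1.5-fold between the lone kidney arrays. The number past the threshold was 2 with slide as a block, 12 with normexp, 3 with scaling to the median and 5 with quantile normalization. Strain differs between organoid and kidney, and its part was not tested.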

How the results depend on the processing

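Of 1961 repeats of single gene values over 155 results, 1739 kept direction and side of the threshold, 91 lost the threshold and 58 gained it. Another 72 changed sign without passing in either setting, and 1 turned with a call (Atp5g2 against P0, -0.37 with quantile normalization). The cause of the changes below was not tested.

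Genes lower at day 7 than at day 0 numbered 43, and 31 with the replicate block, which changed the call of no named gene; leaving out arrays gave 27 (without day 7 replicate 1) to 59. The median of -0.33 was -0.17 with normexp, -0.22 with quantile normalization and -0.46 with slide as a block or slide 2 alone. For the kidney slope, 5 higher became 29 with normexp, 52 with quantile normalization (median 0.22), 2 with scaling to the median, 3 with the mean of probes or no filter, 13 with trend and robust moderation and 0 to 3 on leaving out a stage. For day 0 organoids against E11.5 kidney, 8 higher became 16 with trend and robust moderation, 4 with slide as a block, 2 within slide 1 and 2 to 20 on leaving out arrays; normexp gave 4 lower and a median of 0.0589.

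For day 7 organoids against cultured kidney, 0 higher became 5 with normexp, 1 with quantile normalization, 2 with scaling to the median (median 0.24), 3 with trend and robust moderation and 0 to 2 on leaving out arrays. The 1 lower became 2 with normexp, 0 with no filter or slide as a block (median -0.21, turned) and 0 to 1 on leaving out arrays. Against P0, the median was -0.93 with quantile normalization and -0.88 with slide as a block, and 7 lower mitochondrial-genome subunits became 11 and 2. For the difference of culture changes, quantile normalization gave 1 higher and 4 lower, and normexp 2 and 8 (median -0.0446); the median was -0.32 with slide as a block, and leaving out arrays gave 1 to 3 lower. The 7 lower mitochondrial-genome subunits became 2 with slide as a block, 12 with normexp, 3 with scaling to the median and 1 to 6 on leaving out arrays. For cultured against uncultured E11.5 kidney, 5 lower became 3 with normexp, 2 with quantile normalization and 8 with scaling to the median.

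Normexp moved the median of all features from 0.03 to 0.19 for day 0 organoids minus E11.5 kidney, and to 0.18 for day 7 organoids minus P0 kidney. Scaling to the median moved it to 0.16 for day 7 organoids minus cultured kidney. Probes of 1 gene differed by over 0.5 in the organoid culture change for 5 of 28 genes.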
